A study of Mus musculus with 2 samples.

Results

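The Dlx genes of the mouse and 2 long noncoding RNAs transcribed against them were followed in the forebrain of the embryo. The members were chosen by symbol: the 6 Dlx genes (Dlx1, Dlx2, Dlx3, Dlx4, Dlx5 and Dlx6) and the antisense RNAs Dlx1as and Dlx6os1. These 8 symbols matched 9 of the 43346 mouse gene rows, since Dlx6os1 is listed under a long and a short identifier. Total RNA was sequenced from forebrains at embryonic day 13.5 in 2 libraries that form 1 group, with no second tissue, age or genotype. The embryos were of the B6NCrl strain with males and females pooled, RNA input was 10 ng, and the replicates are labelled as biological, from separate samples of tissue with the same donor code. Their spread is thus that of 2 pools of like tissue. Depth was 35378462 estimated counts in replicate 1 and 36793284 in replicate 2. With 1 group no comparison of conditions can be tested; values are given for each library and errors are SDs of the 2 libraries (n = 2). Intervals from counts cover counting error only.

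Dlx proteins are homeodomain transcription factors related to fly Distal-less. In mammals the genes lie in convergently transcribed pairs that share enhancers in the stretch between them. In the embryonic forebrain Dlx1, Dlx2, Dlx5 and Dlx6 are known as factors of the ganglionic eminences, the part of the ventral telencephalon that makes GABAergic neurons. Dlx2 and Dlx1 act from the progenitor stage, and Dlx5 and Dlx6 follow in cells that leave the ventricular zone. Dlx3 and Dlx4 are best known from surface ectoderm, branchial arches and placenta. Dlx6os1, also called Evf, is made from the Dlx5-Dlx6 interval and in the mouse acts on transcription at that locus. Dlx1as is made from the strand opposite to Dlx1.

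The 6 genes share the homeobox, and a stretch of it is shown around a run of 23 bases that Dlx2 and Dlx3 have in common, to show how far the messages differ. The letters are from GENCODE M21 transcripts (GRCm38), are coding sequence 5′ to 3′, and were aligned without gaps to Dlx2; capitals mark bases that differ from Dlx2.
Dlx1: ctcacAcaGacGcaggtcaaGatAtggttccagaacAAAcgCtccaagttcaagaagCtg
Dlx2: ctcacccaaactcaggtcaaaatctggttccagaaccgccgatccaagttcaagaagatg
Dlx3: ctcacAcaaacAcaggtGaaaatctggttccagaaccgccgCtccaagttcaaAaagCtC
Dlx4: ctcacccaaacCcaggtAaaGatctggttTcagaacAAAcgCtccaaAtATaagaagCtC
Dlx5: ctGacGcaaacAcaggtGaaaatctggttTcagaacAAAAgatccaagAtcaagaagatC
Dlx6: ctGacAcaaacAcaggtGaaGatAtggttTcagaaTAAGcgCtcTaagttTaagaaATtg
Over these 60 bases Dlx3 shared 53 with Dlx2, Dlx1 shared 50, Dlx5 shared 49, Dlx4 shared 47 and Dlx6 shared 44. The longest run identical between any 2 of the 6 genes was 11 to 23 bases over the 15 pairs, on the same strand and over whole transcripts, and for some pairs it lay outside this stretch. The effective lengths in the tables imply fragments of 100 bases, so no run was long enough to hold a fragment.

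The genes lie in 3 pairs, and the map of annotated transcripts shows each pair with its antisense RNAs. Dlx1 (ENSMUSG00000041911; chr2:71528113-71533981, plus strand, mm10) and Dlx2 (ENSMUSG00000023391; chr2:71543408-71546754, minus strand) face each other across 9426 bases. Dlx6 (ENSMUSG00000029754; chr6:6863334-6868568, plus strand) and Dlx5 (ENSMUSG00000029755; chr6:6877805-6882085, minus strand) are 9236 bases apart. Dlx3 (ENSMUSG00000001510; chr11:95120119-95125296, plus strand) and Dlx4 (ENSMUSG00000020871; chr11:95140447-95146263, minus strand) are 15150 bases apart. Dlx1as (ENSMUSG00000084946; chr2:71516454-71537891, minus strand) spans the whole of Dlx1. Dlx6os1 (ENSMUSG00000090063; chr6:6820189-6871592, minus strand) spans the whole of Dlx6 and ends short of Dlx5.

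**Figure D1:**
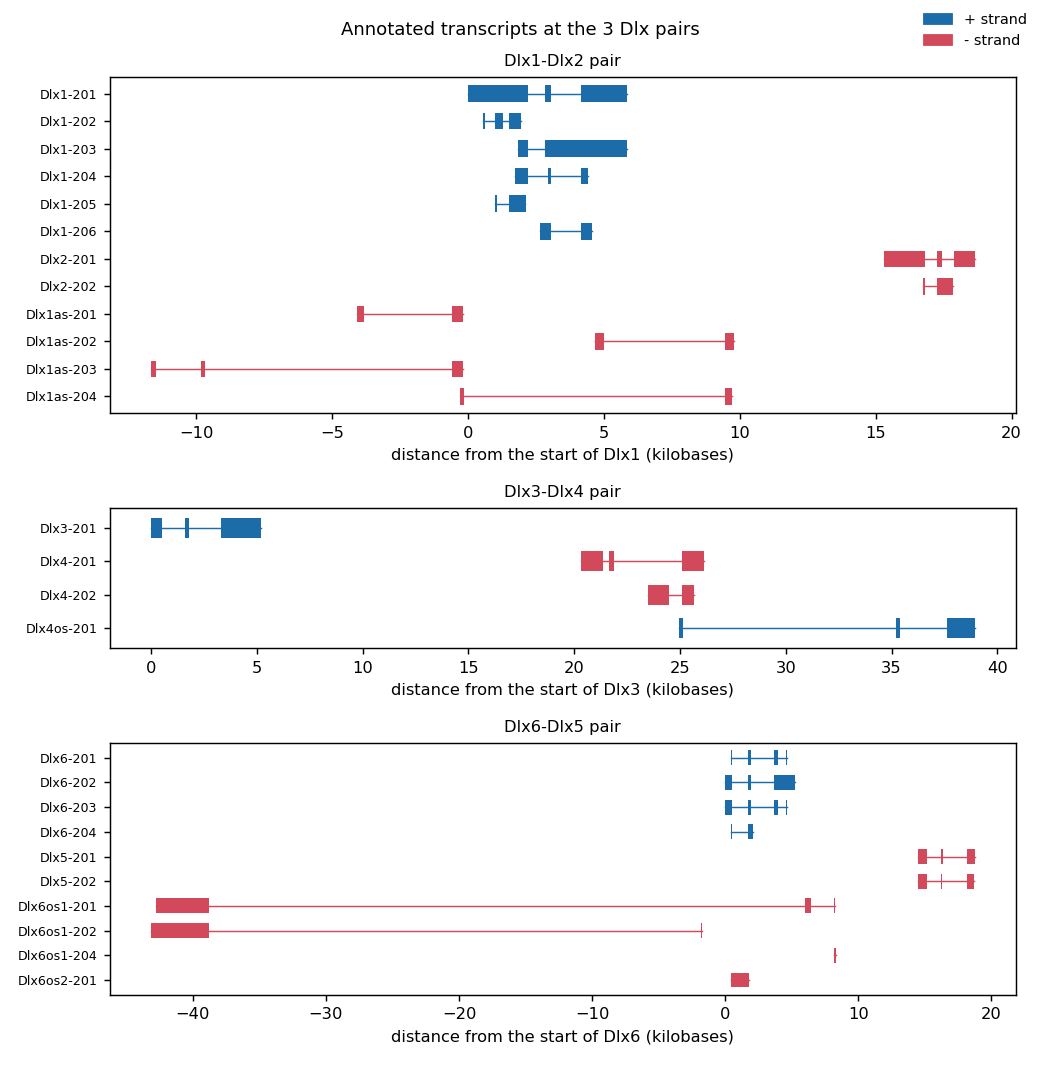
Annotated transcripts of the Dlx pairs and the antisense RNAs around them. Each row is a transcript, boxes are exons, lines are introns, and the x axis is the distance in kilobases from the start of the plus-strand Dlx gene of the pair (blue, plus strand; red, minus strand). Of the Dlx1as transcripts, Dlx1as-202 has an exon within the last exon of Dlx1.

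RefSeq windows of 250 bases before the annotated start (GRCm38.p6) are shown for Dlx2 and for the 2 RefSeq starts of Dlx6os1. Among the RefSeq windows at hand, Dlx2 is the one Dlx gene whose window is clear of an annotated UTR. The second Dlx6os1 window does not precede the start of the form Dlx6os1-201 (6871592) but lies within its middle exon in GENCODE M21. The Dlx1 window lies in the annotated 5′ UTR of Dlx1-201 and is not printed; it held no match and had 68.0% G and C. TAATTA, the core of the sites that Dlx homeodomains bind, was searched on both strands; it is its own reverse complement, and its matches are in capitals. The sequences run 5′ to 3′ on the minus strand.
Dlx2 (chr2:71546755-71547004): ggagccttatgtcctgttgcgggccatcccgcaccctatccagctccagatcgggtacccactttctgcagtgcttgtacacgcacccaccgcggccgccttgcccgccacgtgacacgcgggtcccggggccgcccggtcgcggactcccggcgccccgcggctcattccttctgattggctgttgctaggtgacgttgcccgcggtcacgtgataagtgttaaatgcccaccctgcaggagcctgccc
Dlx6os1 (chr6:6861684-6861933): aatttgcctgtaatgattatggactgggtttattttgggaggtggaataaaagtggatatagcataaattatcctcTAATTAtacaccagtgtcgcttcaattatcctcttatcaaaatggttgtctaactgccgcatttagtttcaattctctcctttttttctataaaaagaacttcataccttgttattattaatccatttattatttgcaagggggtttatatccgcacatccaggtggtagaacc
Dlx6os1 (chr6:6869534-6869783): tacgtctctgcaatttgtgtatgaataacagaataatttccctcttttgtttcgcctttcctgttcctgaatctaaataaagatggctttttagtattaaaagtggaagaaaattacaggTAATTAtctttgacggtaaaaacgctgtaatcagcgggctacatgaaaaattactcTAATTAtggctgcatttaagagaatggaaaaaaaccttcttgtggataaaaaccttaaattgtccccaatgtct
The Dlx6os1 windows held 1 and 2 matches and had 34.0% and 33.2% G and C. The Dlx2 window held none and had 66.4% G and C. Of all 32851 windows of this length, whatever their base composition, 4.84% held at least 1 match and 0.444% at least 2. A match is a description of the letters, not a site.

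Dlx1 was the most abundant member, with 233 TPM (a relative level per length of transcript) in replicate 1 and 235.02 TPM in replicate 2 (233.9 ± 1.65 TPM, SD, n = 2). These values rested on 9580 and 10986 estimated counts, and Dlx1 ranked 630 among 21474 protein-coding genes, with 97.1% of them below it. The genes next to it in level were Ube2b and Ostc above, and Oaz2 and Myef2 below. Dlx5 had 70.3 and 74.9 TPM (72.6 ± 3.26 TPM) from 2060 and 2392 counts, at rank 2265. Dlx2 had 59.6 and 68.2 TPM (63.9 ± 6.08 TPM) from 2981 and 3774 counts, at rank 2630. Dlx5 was above Dlx2 in both libraries and their values did not overlap, but the means were only 1.14-fold apart. Nmt2 and Fam49b stood just above Dlx5 in level, with Smc3 and Chmp7 just below, while Dlx2 stood between Auts2 and Zfp410 above and Shmt2 and Syf2 below. Dlx6 had 13.6 and 12.7 TPM (13.2 ± 0.636 TPM) from 285 and 332 counts, at rank 7737 with 64.0% of protein-coding genes below it. Its nearest genes in level were Lrr1 and Tyw3 above, and Rnft1 and Lyplal1 below. In bulk tissue, fewer cells that make an RNA and less of it per cell cannot be told apart.

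Dlx3 and Dlx4, the pair of surface ectoderm and placenta, were close to the limit of detection. Dlx3 had 9 counts in replicate 1 (95% exact Poisson interval 4.12 to 17.1) and 1 count in replicate 2 (0.0253 to 5.57), or 0.16 and 0.02 TPM. Dlx4 had 2 counts (0.242 to 7.22) and 1 count (0.0253 to 5.57), or 0.04 and 0.03 TPM. The intervals of the 2 libraries overlapped for both genes, and the order of Dlx3 and Dlx4 differed between the libraries. No difference between these 2 genes was detectable at this depth. The other 4 of the 6 Dlx genes had at least 1 TPM in both libraries, against 59.0% of all protein-coding genes.

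**Figure D2:**
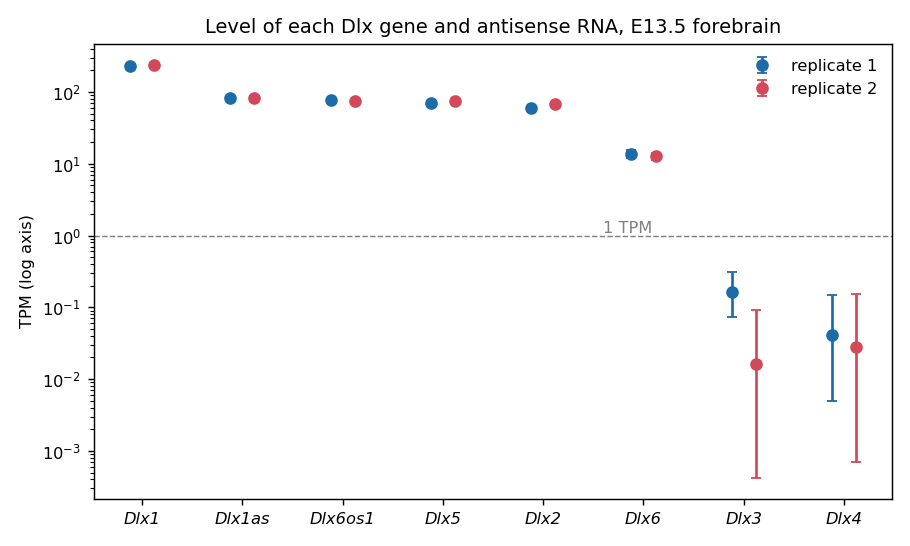
TPM of each Dlx gene and antisense RNA in replicates 1 and 2, on a log axis. Bars are 95% exact Poisson intervals of the counts, and the dashed line is 1 TPM. Of these 8, 6 lie between 12.7 and 235.02 TPM, while Dlx3 and Dlx4 lie at or below 0.16 TPM.

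Both antisense RNAs had mean gene TPM above those of Dlx5, Dlx2 and Dlx6, but for Dlx1as this rests on 1 form that overlaps an exon of Dlx1. Without that form, an alternative chosen after seeing the data, Dlx1as had 11.8 and 11.1 TPM (11.5 ± 0.488 TPM), below Dlx6 in gene TPM. It was above Dlx6 on protein-coding transcripts alone, at 6.60 ± 0.0990 TPM. Dlx1as had 82.5 and 81.9 TPM (82.2 ± 0.417 TPM) from 998 and 1082 counts, and ranked 25 among 5694 long noncoding genes. Dlx6os1 had 77.7 and 74.2 TPM (76.0 ± 2.46 TPM) from 7366 and 7686 counts, and ranked 30. Dlx1as was above Dlx6os1 in both libraries, with means 1.08-fold apart. Dlx6os1 and Dlx5 overlapped: Dlx6os1 was higher in replicate 1 and Dlx5 in replicate 2. The short Dlx6os1 row (ENSMUSG00000098326), a feature of 146 bases, was listed at 65.1 and 32.5 TPM from 68 and 37 counts. Its effective length is only 47 bases, so 1 count weighs heavily on its TPM, and 104 of its bases are shared with the long gene.

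The 6 Dlx genes together made 376 and 391 TPM (384 ± 10.2 TPM). Dlx1 held 61.0 ± 1.20% of this sum, Dlx5 held 18.9 ± 0.344%, Dlx2 held 16.6 ± 1.14% and Dlx6 held 3.44 ± 0.258%. Dlx3 held 0.0238% and Dlx4 held 0.00915%. On transcripts classed as protein-coding alone, an alternative also chosen after seeing the data, Dlx5 held 40.1 ± 0.454% of the sum, Dlx2 held 33.2 ± 1.74% and Dlx1 held 23.0 ± 0.952%. The Dlx1-Dlx2 pair outweighed the Dlx5-Dlx6 pair 3.48-fold in replicate 1 and 3.46-fold in replicate 2 in gene TPM, and 1.26-fold and 1.31-fold on protein-coding transcripts.

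In each expressed pair, one gene was well above its partner. Dlx1 over Dlx2 was 3.90-fold in replicate 1 and 3.44-fold in replicate 2, a log2 ratio of TPM of 1.87 ± 0.13. Dlx5 over Dlx6 was 5.16-fold and 5.89-fold, a log2 ratio of 2.46 ± 0.13. Each ratio had the same direction in both libraries and was larger than the spread between them. The first depends on which transcripts are counted: on protein-coding transcripts alone, Dlx1 over Dlx2 was 0.743-fold and 0.650-fold, a log2 ratio of -0.53 ± 0.14.

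In gene TPM, Dlx1as was below Dlx1, the gene it crosses, and Dlx6os1 was above Dlx6. Dlx1as over Dlx1 was 0.354-fold and 0.348-fold, a log2 ratio of -1.51 ± 0.02, so the antisense RNA was at 35.1% of the level of Dlx1. Against the protein-coding transcripts of Dlx1 alone this turned to 2.00-fold and 1.94-fold, a log2 ratio of 0.98 ± 0.03. Without the Dlx1as form that overlaps Dlx1 it was 0.0508-fold and 0.0474-fold, a log2 ratio of -4.35 ± 0.07. Dlx1as over Dlx2 was 1.38-fold and 1.20-fold, a log2 ratio of 0.37 ± 0.14, and without that form -2.48 ± 0.20. Dlx6os1 over Dlx6 was 5.71-fold and 5.84-fold, a log2 ratio of 2.53 ± 0.02. Dlx6os1 over Dlx5 was 1.11-fold and 0.991-fold, a log2 ratio of 0.07 ± 0.11, which did not exceed the spread.

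The transcript tables divide each gene among its annotated forms. Most of the TPM of Dlx1 was on forms that the annotation classes as retained intron. Dlx1-206, of 803 bases, had 99.7 and 94.3 TPM, or 41.5 ± 1.91% of the gene from 15.5 ± 1.16% of its counts, and its end is marked as not found. Dlx1-203, of 3385 bases, had 91.8 and 98.6 TPM, or 40.7 ± 1.77% of the TPM and 70.7 ± 1.05% of the counts. The difference between these shares of TPM and of counts follows from the lengths. The protein-coding forms together had 41.3 and 42.2 TPM, or 17.8 ± 0.141%. Among them the full-length Dlx1-201, of 4111 bases, had 9.70 and 10.7 TPM, or 4.37 ± 0.281%. Dlx1-202 held 5.67 ± 1.14% and Dlx1-205 held 7.80 ± 1.00%, and the annotation marks the ends of both as not found. Dlx1-204, a form classed for nonsense-mediated decay, was listed at 0 in both libraries.

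The annotation shows what these forms keep. Relative to Dlx1-201, Dlx1-203 keeps the whole second intron, 1107 bases at chr2:71531157-71532263. Of the bases of Dlx1-203, 1108 are in no other transcript of the Dlx genes and their antisense genes, the only ones compared. Dlx1-206 keeps 177 of the 650 bases of the first intron (chr2:71530307-71530956). By the same comparison, Dlx1-201 has 1160 bases of its own. Reads from the rest of the gene fit several forms, and the deposited shares rest on how they were divided.

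Dlx2 and Dlx5 were mostly single forms. Dlx2-201 had 55.6 and 64.8 TPM, or 94.1 ± 1.26% of the gene, and the retained-intron form Dlx2-202 had 4.05 and 3.42 TPM, or 5.90 ± 1.26%. Dlx5-201 had 66.1 and 70.0 TPM, or 93.7 ± 0.468%, and Dlx5-202, also protein-coding, had 6.28 ± 0.468%. Dlx5-202 has 0 bases of its own and Dlx5-201 has 99, so this split rests on how reads were divided. The deposited posterior SD of the Dlx5-202 count was 29.9 on 114 counts in replicate 1 and 38.5 on 147 in replicate 2. In Dlx6 the short retained-intron form Dlx6-204, of 383 bases, had 6.95 and 6.20 TPM, or 49.9 ± 1.64% of the TPM from 14.1 ± 1.80% of the counts. The full-length Dlx6-202, of 2216 bases, had 4.47 and 5.20 TPM, or 36.8 ± 5.68% of the TPM from 77.0 ± 4.67% of the counts. Retained-intron forms therefore held 82.2 ± 0.141% of TPM in Dlx1, 49.9 ± 1.64% in Dlx6 and 5.90 ± 1.26% in Dlx2, with no such form annotated for Dlx5.

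**Figure D3:**
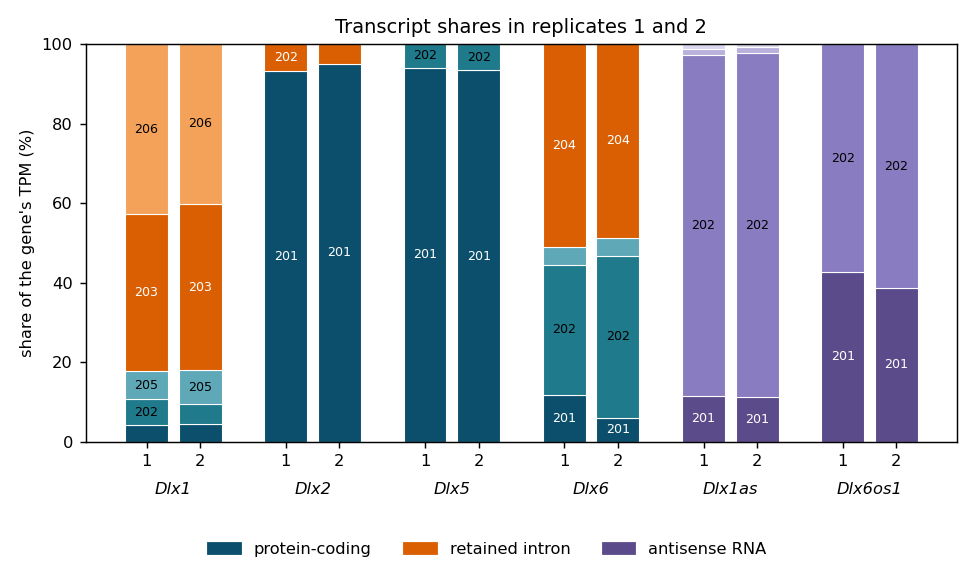
Share of each gene's TPM held by its annotated transcripts, in percent, in replicates 1 and 2. Segments carry the last part of the transcript name and are coloured by class (blue-green, protein-coding; orange, retained intron; purple, antisense RNA). Retained-intron forms hold 82.2% of Dlx1, 49.9% of Dlx6 and 5.90% of Dlx2.

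The choice of transcripts changed the order of the genes. On protein-coding transcripts alone Dlx5 had 72.6 ± 3.26 TPM, Dlx2 had 60.2 ± 6.53 TPM, Dlx1 had 41.7 ± 0.622 TPM and Dlx6 had 6.60 ± 0.0990 TPM. Dlx5 over Dlx1 was then a log2 ratio of 0.80 ± 0.04 and Dlx5 over Dlx2 was 0.27 ± 0.09. With all counts of a gene divided by the length of its longest transcript, also chosen after seeing the data, Dlx1 had 110 ± 3.93 TPM, Dlx5 had 72.3 ± 3.22 TPM, Dlx2 had 61.0 ± 6.44 TPM and Dlx6 had 6.26 ± 0.293 TPM. Dlx6 was the lowest of the 4 on all 3 scales and Dlx5 was above Dlx2 on all 3. Dlx1 was the highest on 2 of them.

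**Figure D4:**
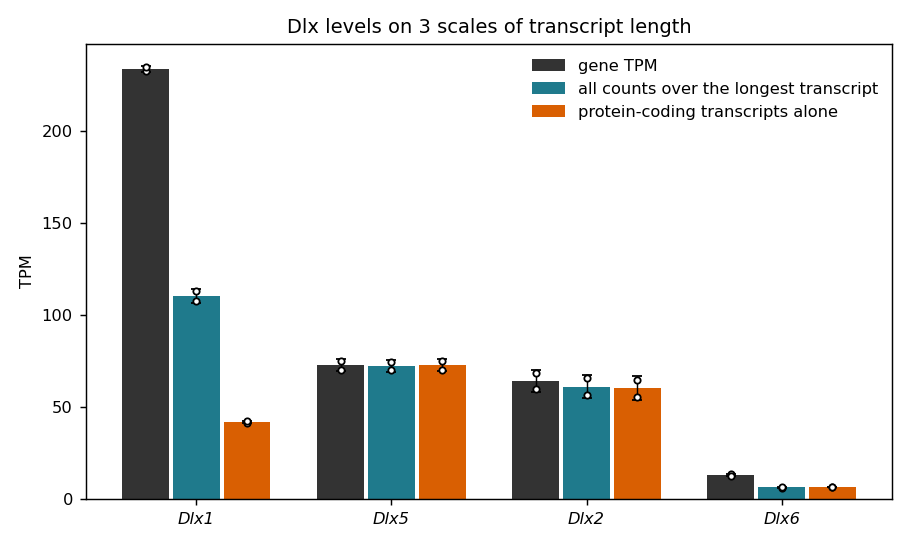
Levels of Dlx1, Dlx5, Dlx2 and Dlx6 in TPM on 3 scales: the gene TPM as deposited, all counts over the length of the longest transcript, and protein-coding transcripts alone. Bars are means, error bars are SDs and points are the 2 libraries; Dlx1 is at 233.9, 110 and 41.7 TPM, while Dlx5 stays between 72.3 and 72.6 TPM.

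Dlx1as was mostly 1 form. Dlx1as-202 had 70.7 and 70.8 TPM, or 86.0 ± 0.524% of the gene, and the other 3 forms together had 11.8 and 11.1 TPM (11.5 ± 0.488 TPM). Dlx1as-202 is the form that overlaps an exon of Dlx1: 335 of its 647 bases lie within the last exon of Dlx1 on the opposite strand (chr2:71532784-71533118). On the same strand, Dlx1 and Dlx1as share no run over 13 bases. Even so, the deposited posterior SD of the counts was the same for both genes, 20.1 counts in replicate 1 and 22.0 counts in replicate 2, and it was 0 for Dlx2, Dlx3, Dlx4, Dlx5 and Dlx6. Dlx6os1 had 7.43 and 5.74 counts, with a posterior SD of 0 for the short row, so the feature it shares reads with is not one of these. Reads were thus divided between Dlx1 and Dlx1as across strands. That posterior SD was 2.02% and 2.04% of the Dlx1as count, and 0.210% and 0.201% of the Dlx1 count. Reads of the overlap from Dlx1 and from Dlx1as cannot be told apart. The 3 other forms of Dlx1as touch no exon of Dlx1.

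Dlx6os1 was divided between 2 forms that share most of their last exon and start apart. Dlx6os1-202, of 4446 bases, had 44.6 and 45.6 TPM, or 59.4 ± 2.84%. Its first base, 6861591 on chromosome 6, lies outside Dlx6. The first Dlx6os1 window shown lies upstream, next to a RefSeq start at 6861683 that is not the first base of this form. Dlx6os1-201 had 33.2 and 28.7 TPM, or 40.6 ± 2.84%, and starts beyond the far end of Dlx6 (6871592), so that its intron spans the whole of that gene. The second window shown lies wholly within its middle exon (chr6:6869309-6869787), which holds a further RefSeq start. This exon is as in GENCODE M21, where the form has 4608 bases, against 4248 in the deposited tables, so the quantified exon may be shorter. Neither form shares an exon base with Dlx6 or Dlx5 on either strand, so the 2.53 log2 ratio of Dlx6os1 over Dlx6 does not rest on shared exons.

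The 6 abundant members differed little between the libraries in TPM. On the log2 scale, replicate 1 over replicate 2 in TPM was -0.01 for Dlx1, 0.01 for Dlx1as, 0.07 for Dlx6os1, -0.09 for Dlx5, -0.19 for Dlx2 and 0.10 for Dlx6. None of these 6, all with a mean of at least 100 counts, was 2-fold apart, and 0.501% of 11967 protein-coding genes with as many counts were. The deposited TPM intervals, whose level is not stated, failed to overlap for 1 of the 6, Dlx2, and for 30.3% of those genes. Neither share sets the members apart. Over these protein-coding genes the median log2 ratio in TPM was itself 0.11. Relative to that median, all 6 members were lower in replicate 1, by 0.01 (Dlx6) to 0.30 (Dlx2). With edgeR's TMM-scaled counts, whose median over these genes was -0.01, all 6 were again lower in replicate 1, by 0.06 (Dlx6os1) to 0.34 (Dlx2). On that scale 47.7% of those protein-coding genes were higher in replicate 1, and 7.14% were at least as far apart as Dlx2. The median size of the difference was 0.08 over the 6 members and 0.14 over those genes in TPM, but 0.20 and 0.09 with TMM-scaled counts. With a minimum of 10 counts the short Dlx6os1 row was also tested and was 2-fold apart (1.00 on the log2 scale, from 68 and 37 counts), as were 3.06% of protein-coding genes. With no filter Dlx3 was apart as well (from 9 counts and 1 count), as were 7.22% of genes. The spread between the libraries over all genes, as edgeR's common biological coefficient of variation, was 8.62% over 16867 genes.

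The genes around Dlx function in the same tissue give these levels a scale. Of 10 regulators known to act before Dlx genes in the ventral forebrain, 8 had at least 1 TPM in both libraries. The share over all protein-coding genes was 59.0%, which is the measure for the later lists too. The list median of these regulators was 12.7 TPM, against 3.92 TPM over all protein-coding genes. Among them Gli3, a transcription factor of Hedgehog signalling, had 23.0 ± 1.69 TPM, and Six3, a homeobox factor of the anterior forebrain, had 16.8 ± 2.18 TPM. The lowest was Vax1, a homeobox factor of the ventral midline, at 0.800 ± 0.0849 TPM. All 10 were below Dlx1 in mean TPM.

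Of 28 symbols listed as targets and partners downstream of Dlx genes, 26 matched, and 25 of the 26 had at least 1 TPM in both libraries, with a list median of 24.4 TPM. Sst, the neuropeptide somatostatin, had 210 and 144 TPM (177 ± 46.7 TPM). Meis2, a homeobox partner, had 107 and 107 TPM (107 ± 0.403 TPM). Gad2, an enzyme that makes GABA, had 70.5 and 72.3 TPM (71.4 ± 1.27 TPM), close to Dlx5. Isl1, a factor of striatal neurons, had 66.4 and 76.3 TPM (71.3 ± 6.97 TPM). Vax1 was the lowest here too. These levels describe the same tissue and give no tie between any of these genes and a Dlx gene.

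No gene of a list of 35 other homeobox factors of the developing forebrain exceeded Dlx1 in gene TPM. At least 1 TPM in both libraries was found for 32 of the 35, whose list median was 18.3 TPM. The highest were Lhx2, a factor of the cortex and eye field, at 133 ± 10.3 TPM, Cux1, a factor of upper-layer neurons, at 116 ± 4.50 TPM, Meis2 at 107 ± 0.403 TPM and Pax6, a factor of cortical progenitors, at 74.2 ± 2.02 TPM. Hesx1 was listed at 0 in both libraries. On protein-coding transcripts alone, Dlx1 at 41.7 TPM was below these 4, whose own protein-coding share was not computed.

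Markers of the dorsal forebrain, whose own excitatory neurons are not known to use Dlx genes, were also present. All 10 pallial factors had at least 1 TPM in both libraries, with a median of 41.2 TPM and a summed level of 545 TPM in replicate 1 and 712 TPM in replicate 2. Neurod6, a factor of cortical excitatory neurons, had 145 and 257 TPM (201 ± 79.1 TPM). Neurog2, a proneural factor of cortical progenitors, had 114 ± 16.2 TPM, Pax6 had 74.2 ± 2.02 TPM and Emx1 had 66.9 ± 2.28 TPM. Neurog1 was lowest at 11.0 ± 0.283 TPM. The pallial sum and the Dlx sum were both lower in replicate 1, and the part of the one in the other was not tested.

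Markers of the tissues where Dlx3 and Dlx4 are best known were mostly low. Of 14 surface ectoderm and placode genes, 5 had at least 1 TPM in both libraries, with a median of 0.43 TPM and sums of 51.9 and 44.0 TPM (replicates 1 and 2). The AP-2 factor Tfap2c led at 29.3 ± 0.615 TPM, followed by Eya1 at 7.60 ± 1.26 TPM and the keratin Krt18 at 3.73 ± 2.40 TPM, then Epcam at 2.55 ± 0.233 TPM. Trp63, which defines stratified epithelium, was lowest at 0.120 ± 0.0283 TPM. Of 15 branchial arch, limb, cartilage and bone genes, 4 had at least 1 TPM in both, with a median of 0.375 TPM and sums of 145 and 130 TPM. Sox9, which neural progenitors also express, led at 79.7 ± 0.834 TPM, with the cartilage collagen Col2a1 at 29.4 ± 5.18 TPM, Msx1 at 15.7 ± 1.74 TPM and Prrx1 at 7.35 ± 0.403 TPM. Hand1 was listed at 0. None of 6 placenta genes reached 1 TPM, with sums of 0.29 and 0.35 TPM and Tpbpa, which defines spongiotrophoblast, listed at 0. In TPM, 13 of the 14 surface ectoderm genes and 9 of the 15 arch genes were higher in replicate 1. Of protein-coding genes with a mean of at least 100 counts, 76.1% were higher there, a larger share than that of the arch genes. Most of these markers had a mean below 100 counts, so that share is not a like background for them. Without Tfap2c the surface ectoderm genes summed to 22.2 and 15.1 TPM, and without Sox9 the arch genes summed to 65.4 and 50.1 TPM. Named after their values were seen, Krt18 had 5.43 and 2.03 TPM and Alx1, a factor of the facial mesenchyme, had 4.94 and 0.67 TPM. Other members of the lists went the other way: Krt19 had 0.19 and 0.40 TPM, Sp7 had 0.10 and 0.13 TPM, and Sox9 had 79.1 and 80.3 TPM. The part of surface ectoderm or arch cells in the Dlx3 counts was not tested.

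**Figure D5:**
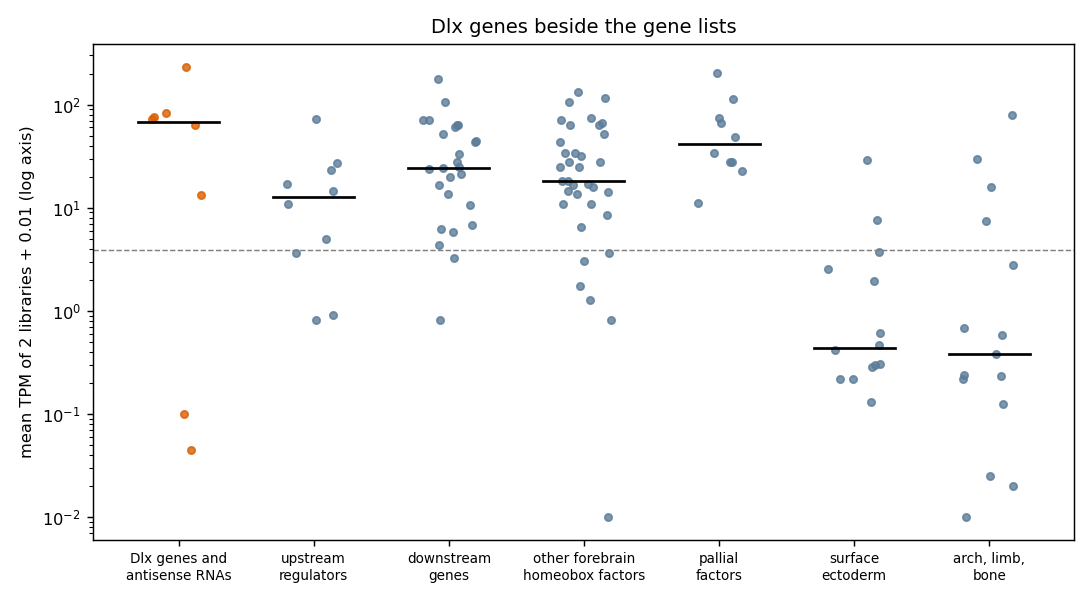
Mean TPM of 2 libraries (plus 0.01, log axis) of the 8 Dlx genes and antisense RNAs (orange) beside the genes of 6 lists (grey-blue). Black bars are list medians, and the dashed line is the median of all protein-coding genes, 3.92 TPM. Dlx3 and Dlx4 lie under the medians of the surface ectoderm and arch lists, and the other 6 members lie above 10 TPM.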

How the data were processed

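Total RNA longer than 200 bases was extracted with a mirVana kit and spiked, per the labels' protocols, and a low-input cDNA kit is linked there. The authors aligned to mm10 with GENCODE M4, per the metadata deposited with the tables. Which aligner, read length and strand setting were used is not given in the sources. The authors deposited expected counts, that is, estimated counts in which reads fitting several features are split. TPM as deposited is a level per length over all rows, spike-ins included. Deposited percent values hold transcript shares, recomputed here from TPM. The deposited TPM intervals are the authors' signal bounds around a posterior mean, with no stated level, so a TPM can lie outside its own interval. The deposited lengths and posterior SDs are used as given.

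Rows were matched by identifier to GENCODE M21 on GRCm38, the same assembly (42462 of 43346 mouse rows), for symbols, classes, coordinates and sequences; 23 of the 24 member transcripts had the same length there. Promoter windows are from RefSeq (GRCm38.p6). Levels are TPM per library with mean and SD, and ratios were taken within each library. Rounded counts went into edgeR 4.0.16 for TMM scaling and the common dispersion, and into DESeq2 1.42.0 for size factors (R 4.3.3). The dispersion estimate was tested on simulated data. Other steps used Python 3.11.15 and pandas 2.3.3. A chi-square of counts per degree of freedom was 10.3 over 19045 degrees of freedom, far above sampling noise, so the files do not hold the same library.

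The members, lists and alternatives were chosen with earlier results of these data known. By rule the text names all members, the 2 protein-coding genes next above and below each expressed Dlx gene in level, and, of each list, the 4 highest genes and the lowest. Some genes that this rule names are not reported here. Lists share genes. Alternatives were another TPM estimate, TPM over mouse genes alone, pseudocounts of 1 and 0.1 TPM, counts in place of TPM, other scalings and filters, 5 TPM as the level, list means, and leaving out each library. Levels on protein-coding transcripts alone and on the longest transcript, and Dlx1as without the form that overlaps Dlx1, were added after seeing the data.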

Additional observations from a re-analysis of the deposited data

How the results depend on the processing

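Conditions cannot be compared within 1 group, and depth limits the values of Dlx3, Dlx4 and the short Dlx6os1 row. The log2 ratio of Dlx4 over Dlx3 is not given, since both genes are near the floor of 3 counts. No paired analysis was possible because there is only 1 group. Leaving out 1 of 2 libraries moves a mean by less than its SD by construction. Of the 154 other alternative values, 86 stayed within the spread between libraries or its equivalent for counts, and 66 moved further. In the other 2, a ratio between members changed sign. Among the 66, replicate 1 over replicate 2 of Dlx1as, Dlx6os1 and Dlx6 also changed sign with TMM-scaled and DESeq2-scaled counts. With counts not divided by length, the log2 ratios were 1.61 for Dlx1 over Dlx2, 2.85 for Dlx5 over Dlx6, -3.30 for Dlx1as over Dlx1, 4.61 for Dlx6os1 over Dlx6 and 1.76 for Dlx6os1 over Dlx5. On the length of the longest transcript they were 0.86, 3.53, -0.56 and 3.57 for the first 4 of these, in that order, and 1.12 for the Dlx1-Dlx2 pair over the Dlx5-Dlx6 pair. On protein-coding transcripts alone, Dlx5 over Dlx6 was 3.46, Dlx6os1 over Dlx6 was 3.52 and the pair ratio was 0.36, while Dlx1 over Dlx2 reversed to -0.53 and Dlx1as over Dlx1 to 0.98, by construction without the retained-intron forms of Dlx1. Without the form that overlaps Dlx1, Dlx1as over Dlx1 was -4.35. Dlx6os1 over Dlx6 was 2.49 with posterior mean TPM and 2.44 with a pseudocount of 1 TPM. Leaving out 1 library gave 1.78 to 1.96 for Dlx1 over Dlx2, 2.37 to 2.56 for Dlx5 over Dlx6, -1.52 to -1.50 for Dlx1as over Dlx1, 2.51 to 2.55 for Dlx6os1 over Dlx6 and -0.013 to 0.14 for Dlx6os1 over Dlx5, which changes sign without replicate 1, and 1.79 to 1.80 for the pair ratio. With a minimum of 10 counts, 1 of 7 member rows was 2-fold apart between libraries (the short Dlx6os1 row), against 3.06% of protein-coding genes, and with no filter 2 of 9 were (Dlx3 as well), against 7.22%. The common coefficient of variation was 8.79% with no filter and 8.65% with DESeq2's size factors.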

Other observations

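Genes that flank the 3 Dlx pairs ranged from below 1 TPM to the level of Dlx1. Hat1, a histone acetyltransferase near Dlx1 and Dlx2, had 129 ± 1.61 TPM, followed by Metap1d at 35.2 ± 5.59 TPM, Itga6 at 27.3 ± 1.07 TPM and Pdk1 at 14.7 ± 1.40 TPM (SD, n = 2). Near Dlx5 and Dlx6, Sem1, a subunit of the proteasome, had 231 ± 16.0 TPM, the neuropeptide gene Tac1 had 34.7 ± 7.88 TPM, Asns, which makes asparagine, had 34.1 ± 7.38 TPM and Sdhaf3 had 6.87 ± 0.594 TPM. Over all protein-coding genes, 59.0% had at least 1 TPM in both libraries. Near Dlx3 and Dlx4, whose own values were at most 0.16 TPM, this held for 6 of 7 genes. Samd14 had 76.4 ± 4.70 TPM there, Kat7, a histone acetyltransferase, had 59.9 ± 7.79 TPM, Pdk2 had 16.6 TPM in both libraries and Ppp1r9b had 13.3 ± 0.0354 TPM, while Tac4 had 1 count and 0 counts.

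Of the other antisense genes at the pairs, Dlx6os2 (chr6:6863797-6865150), which lies inside Dlx6, had 2.80 and 3.32 TPM from 78 and 101 counts. It shares 104 exon bases with Dlx6 on the opposite strand. Dlx4os (chr11:95145052-95159047) had 0 counts in both libraries. In replicate 1 this allows a level of 0.0862 TPM, and in replicate 2 one of 0.0791 TPM.

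RNA of red blood cells was present. The 5 red blood cell markers together made 6140 TPM (replicate 1) and 5173 TPM (replicate 2), led by the embryonic globins Hbb-y at 3317 ± 541 TPM and Hba-x at 321 ± 85.0 TPM and by Hba-a1 at 1992 ± 54.9 TPM, with Alas2 at 22.3 ± 1.88 TPM. Of 8 olfactory and vomeronasal markers, 5 had at least 1 TPM in both libraries, against 59.0% of all protein-coding genes, with sums of 361 and 361 TPM. Gap43, which growing neurons of the brain also express, made most of this at 331 ± 4.70 TPM, with Neurog1 at 11.0 ± 0.283 TPM, Ebf2 at 6.81 ± 2.85 TPM, Adcy3 at 5.82 ± 0.771 TPM, and Foxi1 listed at 0. Of the markers that define olfactory neurons, named after their values were seen, Omp had 0.385 ± 0.0495 TPM and Cnga2 had 0.105 ± 0.0636 TPM. The part of these cells in the Dlx levels was not tested.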
